A study of Mus musculus with 6 samples.

Results

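The 6 RNA sequencing libraries of mouse subcutaneous white fat fell into 2 sets by how much lymphoid RNA they held. The rule placed a library on the lymphoid-rich side when Cd79a, the signalling chain of the B cell receptor, stood at 50 TPM or more, and on the lymphoid-poor side when it stood below 5 TPM. It put 4 of the 6 libraries on the rich side, namely WT replicates 1 and 2 and Tumor replicates 2 and 3, and 2 on the poor side, namely WT replicate 3 and Tumor replicate 1. TPM, the unit of the table, gives each transcript its share of the library after division by its length. Cd79a was 277, 235, 449 and 712 TPM on the rich side and 0.775 and 1.71 TPM on the poor side, and the libraries nearest to the threshold held 235 and 1.71 TPM. In all such lists below the order is WT replicate 1, WT replicate 2, Tumor replicate 2 and Tumor replicate 3 for the rich side, then WT replicate 3 and Tumor replicate 1 for the poor side. The label under which these sets were proposed calls the second side free of lymph node. Glycam1, Chst4, Madcam1 and Fut7, of high endothelium, were at 1.23 TPM or less there, but Ighm, the IgM heavy chain, Cxcl13 and the venule genes Ackr1 and Selp were not, so that the sides are called rich and poor. The libraries of each side were chosen by the measured Cd79a level, so that every difference between them is a description and carries no test.

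Each title, WT or Tumor, had 2 rich libraries and 1 poor library, so that the sides crossed the titles. The labels disagree on what the titles stand for. The genotype label gives the WT libraries as MSRA WT and the Tumor libraries as MSRA full-body KO, the treatment label is an orthotopic transplant in all 6, and the design text has pancreatic ductal adenocarcinoma cells placed in both kinds of host with fat taken 4 to 5 weeks later. The title of the series speaks of mice with pancreatic tumours and controls without. The sources used here give no age, sex, strain or fat pad and do not say whether animals were pooled. Msra, the methionine sulfoxide reductase named in the genotype, stood at 51.1, 59.1, 39.99 and 26.9 TPM on the rich side and 56.3 and 52.9 TPM on the poor side. It was not lost where the label says knockout, so that directions between groups are drawn from the titles. Library identifiers of the 2 titles come from separate number ranges, and any batch that followed them cannot be told apart from the titles. The Y-linked gene Ddx3y stood between 19.6 and 36.5 TPM in all 6 libraries. Between 13077 and 14253 genes reached 1 TPM in a library, and read totals are not known from TPM.

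A lymph node is built from B cells in follicles, T cells in the zone around them, and a stroma that draws both in. Naive lymphocytes leave the blood through high endothelial venules and then follow the chemokines CCL19 and CCL21 through CCR7 or CXCL13 through CXCR5. The inguinal fat pad of the mouse, a common source of subcutaneous fat, encloses a lymph node, so that dissected fat can carry node tissue. Fat itself is made of adipocytes, progenitors and fibroblasts, capillaries, macrophages and nerve. In bulk tissue, fewer cells of a type and less RNA per cell cannot be told apart.

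Promoter sequences show what some of the genes that separate the sides have in front of them. Below are the 250 bases before the RefSeq start of 5 genes, 5′ to 3′ on the gene's strand, from the RefSeq table for GRCm38.p6. GENCODE, from which gene coordinates elsewhere come, starts Cd79a at 24897381 and Pi16 at 29317680. By that annotation the end of the Cd79a stretch and all of the Pi16 stretch lie inside the gene. Cd79a and Cd3e stand for B and T cells, Glycam1 for high endothelium, Pi16 for the fat side, and Isg15 for an interferon-induced gene that followed neither side. Capitals mark CAGGAAGT on either strand, a core bound by ETS factors, in Cd79a and Cd3e, and overlapping pairs of TTTC set 2 bases apart on either strand, the half-sites of the interferon-stimulated response element, in Isg15.
Cd79a, chr7:24897247-24897496, plus strand: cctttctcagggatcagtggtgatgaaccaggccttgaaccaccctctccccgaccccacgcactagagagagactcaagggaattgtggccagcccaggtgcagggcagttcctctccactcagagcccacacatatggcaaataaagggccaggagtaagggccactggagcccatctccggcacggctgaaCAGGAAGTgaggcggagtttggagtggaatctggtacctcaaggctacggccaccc
Cd3e, chr9:45009612-45009861, minus strand: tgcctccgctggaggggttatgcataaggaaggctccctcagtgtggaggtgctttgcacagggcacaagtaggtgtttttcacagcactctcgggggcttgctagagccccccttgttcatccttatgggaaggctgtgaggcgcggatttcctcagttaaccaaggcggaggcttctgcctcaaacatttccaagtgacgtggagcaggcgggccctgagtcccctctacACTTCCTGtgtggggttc
Glycam1, chr15:103565082-103565331, minus strand: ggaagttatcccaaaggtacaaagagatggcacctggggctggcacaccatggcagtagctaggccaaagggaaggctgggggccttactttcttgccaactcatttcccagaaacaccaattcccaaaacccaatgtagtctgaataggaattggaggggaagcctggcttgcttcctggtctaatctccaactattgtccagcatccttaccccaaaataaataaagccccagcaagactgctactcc
Pi16, chr17:29318632-29318881, plus strand: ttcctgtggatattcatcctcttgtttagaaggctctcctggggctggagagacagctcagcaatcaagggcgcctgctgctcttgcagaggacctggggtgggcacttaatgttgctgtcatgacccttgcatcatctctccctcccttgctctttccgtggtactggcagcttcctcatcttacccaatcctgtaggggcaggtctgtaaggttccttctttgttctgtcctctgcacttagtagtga
Isg15, chr4:156200819-156201068, minus strand: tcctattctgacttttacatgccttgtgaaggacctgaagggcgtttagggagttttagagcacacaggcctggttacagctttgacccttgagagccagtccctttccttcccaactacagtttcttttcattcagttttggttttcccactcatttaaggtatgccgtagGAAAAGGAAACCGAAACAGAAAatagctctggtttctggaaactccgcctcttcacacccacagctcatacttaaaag
The match began 56 bases before the RefSeq start in Cd79a and 18 bases before it in Cd3e. In Cd79a that position is inside the gene by GENCODE. Isg15 held 3 overlapping matches, the outermost 78 bases before the RefSeq start. Neither Glycam1 nor Pi16 held any of the 6 motifs searched, which were these 2 and the octamer ATGCAAAT, the EBF site (TCCC and GGGA 2 bases apart), the PU.1 core GAGGAAGT and the NF-kB site (GGGA and CC 4 bases apart), the last of which can overlap the EBF site. CAGGAAGT was in 2.69% of all 32851 promoters and in 7.46% of the 603 promoters of genes with TPM + 1 at least 2-fold higher in the lowest rich than in the higher poor library. Counted by gene, in any of its promoters, it was in 3.13% of all 27025 genes and in 9.41% of the 457 genes with that gap. By the same count it was in 5 of 15 T cell genes with a promoter entry and in 1 of 15 B cell genes. The TTTC pair was in 2.98% of all promoters and in 5.64% of those 603. By gene it was in 3.46% of all genes and in 7.00% of those 457. It was in 13 of 22 interferon response genes, in 2 of 15 B cell genes and in 0 of 15 T cell genes. The other motifs were also in a higher share of the 603 than of all promoters. The shares were 2.82% against 1.60% for the octamer and 2.16% against 0.779% for EBF. They were 4.81% against 2.44% for PU.1 and 24.2% against 17.6% for NF-kB. The octamer was in 0 of 15 B cell genes. A match is a stretch of letters and no evidence of binding.

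Among the 14740 genes with 1 TPM or more in at least 2 libraries, 3431 (23.3%) were higher in every rich library than in both poor ones. In the other direction 3236 (22%) were higher in both poor libraries than in every rich one. Counts of list members below are to be read against these shares, and against those given next for a wider gap. The median difference of all genes, as mean log2(TPM + 1) of the rich side minus that of the poor side, was 0.02. The sides differed in how far apart they stood. A gap of at least 1 on the log2(TPM + 1) scale, taken between the nearest libraries of the 2 sides, was found for 866 genes (5.88%) that were higher on the rich side and for 105 (0.712%) that were higher on the poor side. Of the 866 genes, 593 were protein coding and 247 were segments or constant regions of immunoglobulin or T cell receptor genes. Together the 866 took 5.38%, 5.04%, 6.12% and 10.1% of the TPM in the rich libraries and 0.752% and 1.04% in the poor ones. Tumor replicate 3 thus held the most of this RNA. The 3236 genes that were higher in both poor libraries, by a gap of any size, took 35.8% and 34.8% of the TPM there and 13.5% to 24.3% on the rich side. Each set was picked from these same libraries, so that its share differs between the sides by construction. The shares of the 2 sets rest on unlike gaps and are not to be compared.

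**Figure D1:**
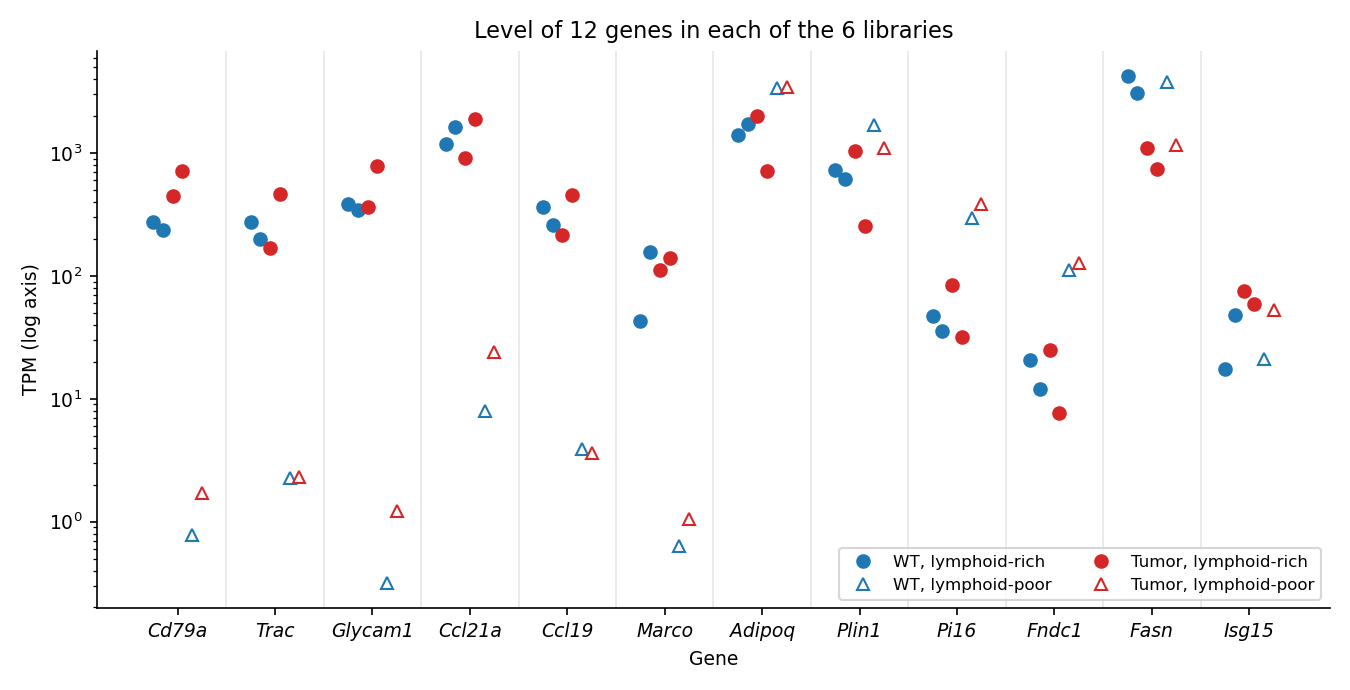
TPM of 12 genes on a log axis, with a point for each of the 6 libraries, filled circles for the lymphoid-rich and open triangles for the lymphoid-poor side, blue for WT and red for Tumor. The first 6 genes lie far higher in the 4 rich libraries, Adipoq, Plin1, Pi16 and Fndc1 lie higher in the 2 poor ones, and for Fasn and Isg15 the sides overlap.

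B cell genes were the farthest apart, but a B cell gene had set the sides, so that their first place carries no weight. Of the 20 listed, 19, Cd79a among them, were higher in every rich library, all with a gap of at least 1. The median difference of the list was 5.62 against 0.02 for all genes. Cd79a itself (chromosome 7, 24897381 to 24902197, GRCm38) set the sides, and Cd79b, its partner in the receptor (chromosome 11, 106311341 to 106314762), stood at 201, 189, 347 and 497 TPM against 1.20 and 4.09 TPM. Fcmr, the receptor for IgM, was at 121, 93.9, 216 and 317 TPM against 0.241 and 0.429 TPM. In each of these the lowest rich library lay far above the higher poor one. Fcer2a, the CD23 receptor of follicular B cells, was at 113, 63.2, 226 and 294 TPM against 0.260 and 0.677 TPM, and Cr2, the complement receptor of B cells and follicular dendritic cells, at 54.2, 16.6, 69.8 and 96.3 TPM against 0.0461 and 0.463 TPM. WT replicate 2 was the lowest rich library for both. The transcription factors Pax5 and Spib and the co-activator Pou2af1 were below 1 TPM in both poor libraries and at 47.1 TPM or more in the rich ones. Ebf1 was the exception, at 28.6, 20.2, 38.7 and 21.9 TPM on the rich side and 43.3 and 42.8 TPM on the poor side. This factor is also expressed in adipocytes and their precursors.

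T cell genes followed with no exception among the 23 listed, all higher in every rich library with a gap of at least 1 and a median difference of 4.76. Trac, the constant region of the T cell receptor alpha chain, stood at 273, 200.5, 169 and 467 TPM against 2.25 and 2.31 TPM. Cd3e, of the CD3 complex, was at 119, 64.4, 67 and 167 TPM against 0.549 and 2.0 TPM. Cd4, the co-receptor of helper T cells, was at 60.9, 50.7, 53.8 and 98.9 TPM against 0.536 and 2.73 TPM, and Cd8b1, of cytotoxic T cells, at 111, 60.5, 54 and 149 TPM against 0.148 and 0.741 TPM. Helper, cytotoxic and naive T cell genes were thus all higher in the same 4 libraries. Tcf7, a factor of naive and memory T cells, stood at 133, 59.5, 74.8 and 177 TPM against 0.477 and 1.83 TPM. Foxp3, which defines regulatory T cells, stood at 9.66, 5.63, 5.60 and 16.5 TPM against 0.0747 and 0.313 TPM. Cd40lg, the help signal to B cells, was at 6.25, 4.48, 5.76 and 10.5 TPM on the rich side and was listed at 0 in both poor libraries. Tumor replicate 3 was the highest library for every T cell gene.

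Genes of NK and cytotoxic cells separated less widely. Of 11 tested, 7 were higher in every rich library, against 23.3% of all genes, and 5 had a gap of at least 1, against 5.88%. The median difference was 1.47. Ccl5, a chemokine of memory and cytotoxic cells, stood at 826, 641, 438 and 939.5 TPM against 17.7 and 44.4 TPM. Gzma, a granzyme, overlapped between the sides at 6.75, 10.2, 21.1 and 21.7 TPM against 5.24 and 11.9 TPM. So did Ncr1, the NKp46 receptor that marks NK cells, at 2.82, 1.79, 4.20 and 5.54 TPM against 1.16 and 2.16 TPM.

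On the rich side the T cell zone chemokines Ccl21a and Ccl19 stood above Cxcl13 of the follicles, and on the poor side Cxcl13 stood above both. Ccl21a stood at 1189, 1619, 913 and 1891 TPM on the rich side and 7.98 and 24 TPM on the poor side. Its near-identical copies Ccl21b and Ccl21c can share its reads, and Ccl21b was listed at 79.7, 95, 47.4 and 139 TPM against 0 and 5.07 TPM, so that the division between copies is uncertain. Ccl19, the other CCR7 ligand, stood at 362, 261, 216 and 459 TPM against 3.87 and 3.61 TPM. Cxcl13, which draws B cells into follicles, was also higher in every rich library, at 104, 74.2, 176 and 281 TPM, but was far from absent on the poor side, at 34 and 29.1 TPM. The ratio of means of the sides was 5.04 for Cxcl13, 86.7 for Ccl19 and 87.8 for Ccl21a.

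Receptors of lymphocytes were low on the poor side. Ccr7 was at 95, 78, 77.3 and 170.0 TPM against 0.934 and 5.03 TPM, Cxcr5 at 31.1, 19.3, 43.6 and 70.7 TPM against 0.236 and 0.125 TPM, and Ccr6, of B cells and some T cells, at 30.2, 10.2, 31.4 and 52.5 TPM against 0 and 0.0455 TPM. In the whole homing list 11 of 13 tested genes were higher in every rich library and 9 had a gap of at least 1. S1pr1, the receptor that guides lymphocytes out of nodes and is also strong in endothelium, overlapped between the sides at 68.6, 52.5, 82.7 and 96.5 TPM against 55.1 and 48 TPM. Ackr3, a scavenger of CXCL12, was the member that went the other way, at 17.3, 20.5, 18.7 and 8.73 TPM on the rich side and 62 and 62.8 TPM on the poor side. Its ligand gene Cxcl12 was at 172, 226, 221 and 158 TPM against 131 and 108 TPM.

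The list for high endothelial venules split in 2. Glycam1, a sugar-bearing mucin of high endothelium (chromosome 15), stood at 385, 344, 363 and 788 TPM on the rich side and 0.319 and 1.23 TPM on the poor side, with the largest difference of its list, 8.01. Chst4, which sulfates those sugars, was at 7.20, 5.74, 5.15 and 9.28 TPM and was listed at 0 in both poor libraries. Madcam1, an adhesion ligand, was at 4.07, 2.52, 4.27 and 9.38 TPM against 0.151 and 0.121 TPM, and Fut7, the fucosyltransferase for selectin ligands that leukocytes express too, at 7.75, 5.17, 10.1 and 8.38 TPM against 0.213 and 0.876 TPM. These 4 were the members with a gap of at least 1. Ackr1, the atypical chemokine receptor of venules, was instead higher in both poor libraries, at 23.3, 27.4, 28.3 and 22.1 TPM against 44.1 and 41.2 TPM. So were Selp, P-selectin, at 5.35, 4.57, 3.96 and 3.30 TPM against 13.3 and 9.70 TPM, and the glycosyltransferase B3gnt3. Over the list 8 of 12 were higher in every rich library and 3 in both poor ones, and the median difference was 1.12.

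Stromal genes of the node were higher on the rich side in 12 of 14 tested cases, 8 of them with a gap of at least 1. Grem1, a BMP antagonist of node fibroblasts, stood at 3.87, 3.47, 3.21 and 7.90 TPM against 0.0215 and 0.0535 TPM. Tnfsf11, the ligand RANKL, stood at 3.10, 2.94, 4.40 and 13.9 TPM against 0 and 0.0989 TPM. For Grem1, Tnfsf11 and Coch, Tumor replicate 3 was well above the other rich libraries. Pdpn, a marker of node fibroblasts and lymphatics that fat progenitors also express, was higher in both poor libraries, at 14.6, 9.04, 12.8 and 9.95 TPM against 23.9 and 37.7 TPM. Among genes of lymphatic endothelium 5 of 10 were higher in every rich library, against 23.3% of all genes, with a median difference of 0.45, and the scavenger receptor Stab2, at 6.73, 10.6, 17.2 and 11.3 TPM against 0.50 and 0.956 TPM, was the member with a gap of at least 1. Prox1, the factor that defines lymphatic identity, was low throughout, at 0.844, 1.41, 1.78 and 1.70 TPM against 0.129 and 0.171 TPM.

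The signals that pass between lymphocytes and stroma had members on both sides. Ltb, lymphotoxin beta, stood at 218, 175, 219 and 352 TPM against 0.901 and 2.40 TPM, and Lta, lymphotoxin alpha, at 20.3, 12.3, 23 and 31.2 TPM against 0.0632 and 0 TPM. Ltbr, their receptor on stromal cells, was higher in both poor libraries, at 42.3, 41.2, 45.7 and 30.7 TPM against 69.6 and 69.5 TPM, as was the TNF receptor Tnfrsf1a, at 85.2, 90.7, 102 and 74.2 TPM against 142 and 149 TPM. The BAFF receptor of B cells, Tnfrsf13c, was at 50.4, 27, 69.3 and 104 TPM against 0.219 and 0.670 TPM. Its ligand gene Tnfsf13b was closer between the sides, at 10.8, 11.8, 10.1 and 8.59 TPM against 4.90 and 6.07 TPM. Il7, the survival cytokine made by stroma, stood at 7.05, 7.55, 6.81 and 6.11 TPM against 2.41 and 2.35 TPM, and Il7r, its receptor on T cells, at 46.2, 27.5, 33 and 78.5 TPM against 0.561 and 8.88 TPM. Relb and Nfkb2, of the NF-kB branch that lymphotoxin drives, were each higher in every rich library, with Relb at 55.6, 44.8, 54.6 and 112 TPM against 11.2 and 19.7 TPM. Over the 20 genes 13 were higher in every rich library, 9 with a gap of at least 1, and 2 were higher in both poor ones.

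Antibody genes were mostly higher on the rich side, but not all in the same order among the 4 libraries. Ighd, of naive B cells, stood at 299, 193, 562 and 803 TPM against 1.88 and 2.72 TPM. Ighm, the IgM heavy chain, was at 730.4, 993, 1292 and 2473 TPM and kept 132 and 192 TPM on the poor side, where Cd79a was at 1.71 TPM or less. Igkc, the kappa light chain, was at 1696, 4470.0, 3629 and 5771 TPM against 120.1 and 14.1 TPM. WT replicate 3 held more kappa and less Cd79a than Tumor replicate 1. The switched isotypes did not follow Cd79a within the rich side. Ighg1 stood at 64.4, 416, 16.3 and 31.1 TPM against 1.56 and 0 TPM, with WT replicate 2 far above the rest, and Ighg2c at 57.3, 507, 401 and 323 TPM against 0 and 0.163 TPM, with WT replicate 1 far below the other rich libraries. Igha, the IgA heavy chain, overlapped between the sides, at 8.06, 62.7, 41.6 and 3.70 TPM against 12.9 and 1.43 TPM. The joining chain gene Jchain was at 31.4, 187, 122 and 229 TPM against 3.47 and 0.511 TPM. Xbp1, the secretory factor that plasma cells share with many other cells, overlapped, and over the list 9 of 14 were higher in every rich library. Of 218 immunoglobulin variable genes, 165, 158, 187 and 184 reached 1 TPM in the rich libraries and 19 and 3 in the poor ones. A single segment can be high in 1 library, as Igkv12-44 was, at 51.6, 408, 34.5 and 74 TPM on the rich side and listed at 0 in both poor libraries. Such segments resemble each other, and their reads are uncertain. The T cell receptor variable genes reached 1 TPM for 100, 82, 96 and 113 of 144 on the rich side and for 1 and 2 on the poor side.

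Genes of node sinus and medullary macrophages were higher in every rich library in 4 of 7 cases, against 23.3% of all genes. Marco, a scavenger receptor, stood at 42.6, 156, 113 and 141 TPM against 0.634 and 1.05 TPM, lowest on the rich side in WT replicate 1. Cd209b, a lectin of marginal and medullary macrophages, was at 95.9, 205, 178 and 252 TPM against 10.9 and 15.5 TPM. Timd4, a receptor for phosphatidylserine, was at 38.1, 79, 99.1 and 94.8 TPM against 3.95 and 4.21 TPM. Vcam1, an adhesion ligand for leukocytes, was the other member that separated the sides. Siglec1, the sialoadhesin of sinus macrophages that interferon also induces, overlapped, at 15.6, 14.6, 34.5 and 36.3 TPM against 8.26 and 20.7 TPM.

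Dendritic cell genes were higher in every rich library in 8 of 13 cases, against 23.3% of all genes. Ccl22, a chemokine of migratory dendritic cells, stood at 61.8, 35.6, 23.3 and 72.4 TPM against 1.11 and 4.72 TPM. Siglech, of plasmacytoid dendritic cells, was at 21.2, 26.5, 27.9 and 32.1 TPM against 1.05 and 2.52 TPM, and Flt3, the growth factor receptor of the lineage, at 11.7, 8.09, 11.1 and 22.1 TPM against 0.429 and 1.81 TPM. Zbtb46 and Batf3, factors of conventional dendritic cells, and Cd209a overlapped, with Zbtb46 at 9.69, 8.54, 10.7 and 11.6 TPM against 9.82 and 8.97 TPM. Among genes of germinal centres, where B cells mutate their receptors, Mef2b and Gcsam were the 2 of 8 tested with a gap of at least 1. Of all genes 5.88% had such a gap. Mef2b, a transcription factor, stood at 2.76, 3.22, 2.34 and 3.43 TPM on the rich side and 0.0671 and 0.0485 TPM on the poor side.

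Antigen presentation genes were mostly higher on the rich side, by unlike amounts within each class. All 10 class II genes were higher in every rich library, and 4 had a gap of at least 1. The B cell peptide editors stood out among them, with H2-Ob at 164, 103, 322 and 427 TPM against 3.07 and 5.46 TPM and H2-Oa at 57.2, 43.4, 93.1 and 148 TPM against 0.668 and 1.28 TPM. H2-Ab1, a chain that presents peptides on every antigen-presenting cell, was closer, at 966, 974, 1573 and 2259.9 TPM against 414 and 529.9 TPM. Of 12 class I genes 9 were higher in every rich library, against 23.3% of all genes, and 3 overlapped. The median difference was 0.89, and 1 gene had a gap of at least 1. Psmb9, a subunit of the immunoproteasome, stood at 130.2, 131, 149 and 203 TPM against 51.7 and 63.2 TPM. B2m, the light chain that all nucleated cells make, overlapped at 3749, 3302, 4298 and 4051 TPM against 3634 and 4515 TPM.

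Cell cycle and ribosomal protein genes also followed the rich side. Of 20 cell cycle genes 19 were higher in every rich library, against 23.3% of all genes, and 6 had a gap of at least 1, against 5.88%. The median difference was 1.36. Top2a, the topoisomerase of dividing cells, stood at 22.9, 30.9, 28 and 26.5 TPM against 2.96 and 9.32 TPM. Tyms, thymidylate synthase, was the member that overlapped. All 18 ribosomal protein genes were higher in every rich library, none with a gap of at least 1, and they moved in a narrow range with a median difference of 0.97. Rps6 stood at 1218, 1228, 1048 and 1719 TPM against 525 and 663 TPM.

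**Figure D2:**
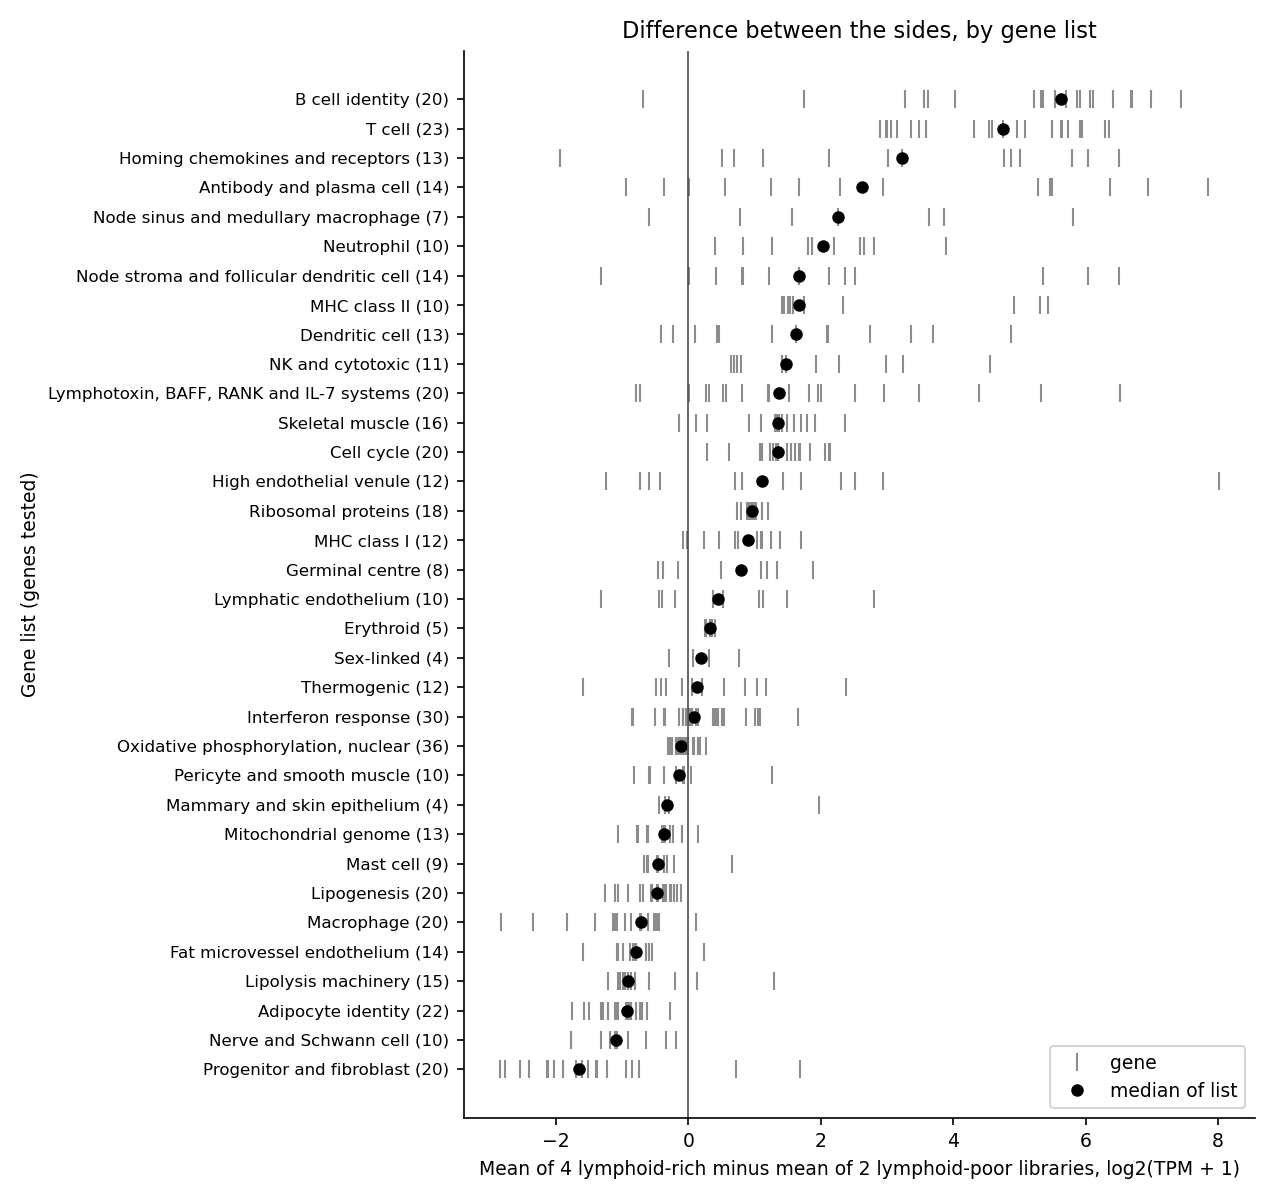
Difference between the sides, as mean log2(TPM + 1) of the 4 lymphoid-rich minus that of the 2 lymphoid-poor libraries, for each tested gene (ticks) and as the median (dots) of each of the 34 lists, with the number of genes tested in brackets. B and T cell genes lie farthest to the right at medians of 5.62 and 4.76, and progenitor and fibroblast genes farthest to the left at -1.65. The sides were set by the B cell gene Cd79a.

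Outside the lists, the genes whose ratio to Cd79a varied least over the 4 rich libraries were Iglc3, Gm8369, Srpk3, P2ry13, Napsa, Gpr183, Igkv6-25 and Igkv19-93. Iglc3, a lambda light chain constant region with near-identical neighbours, stood at 226, 196, 385 and 559 TPM against 0.674 and 1.27 TPM. Gpr183, the oxysterol receptor that positions B cells, was at 13.7, 9.86, 19.3 and 33.9 TPM against 0.646 and 1.54 TPM. Napsa, an aspartic protease, was at 52, 47.3, 100.1 and 154 TPM against 5.01 and 8.58 TPM. The likeness was the SD of the log2 ratio over 4 libraries, which share their tissue, and it was 0.05 for Iglc3. Apart from list members the widest gaps on the rich side were those of immunoglobulin and T cell receptor segments such as Ighj1 and Trbj2-3 and of Ly6d, a surface protein of B cells, at 229.6, 199.8, 315 and 438 TPM against 0.533 and 1.51 TPM.

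The rich libraries were not alike in which lymphocytes they held. All 19 B cell genes with a gap of at least 1 were highest in Tumor replicate 3, and all 19 were higher in Tumor replicate 2 than in both WT rich libraries. Of the 23 T cell genes, all were highest in Tumor replicate 3 as well, but in Tumor replicate 2 1 gene lay above both WT rich libraries and 9 lay below both. Relative to each gene's mean over the 4 libraries, Tumor replicate 2 had a median of 0.30 for the B cell genes and -0.46 for the T cell genes on the log2 scale. WT replicate 2 had medians of -0.75 and -0.52, and 14 of the 23 T cell genes were lowest there. The ratio of Cd79a to Trac was 1.01 and 1.17 in the WT rich libraries and 2.65 and 1.52 in the Tumor ones. The summed B cell genes, without Cd74 and Ebf1, which other cells express, stood at 0.880 and 0.974 of the summed T cell genes in the former and at 2.28 and 1.34 in the latter. Both Tumor libraries thus had the higher ratio, and 2 against 2 libraries allow no exact test to reach 0.05. For Glycam1 the level per 100 TPM of Cd79a was 139, 146, 80.8 and 111. Ccl21a per 100 TPM of Cd79a ran at 430, 688, 203 and 266, so that WT replicate 2, with the least Cd79a, had the most Ccl21a for its B cell RNA.

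**Figure D3:**
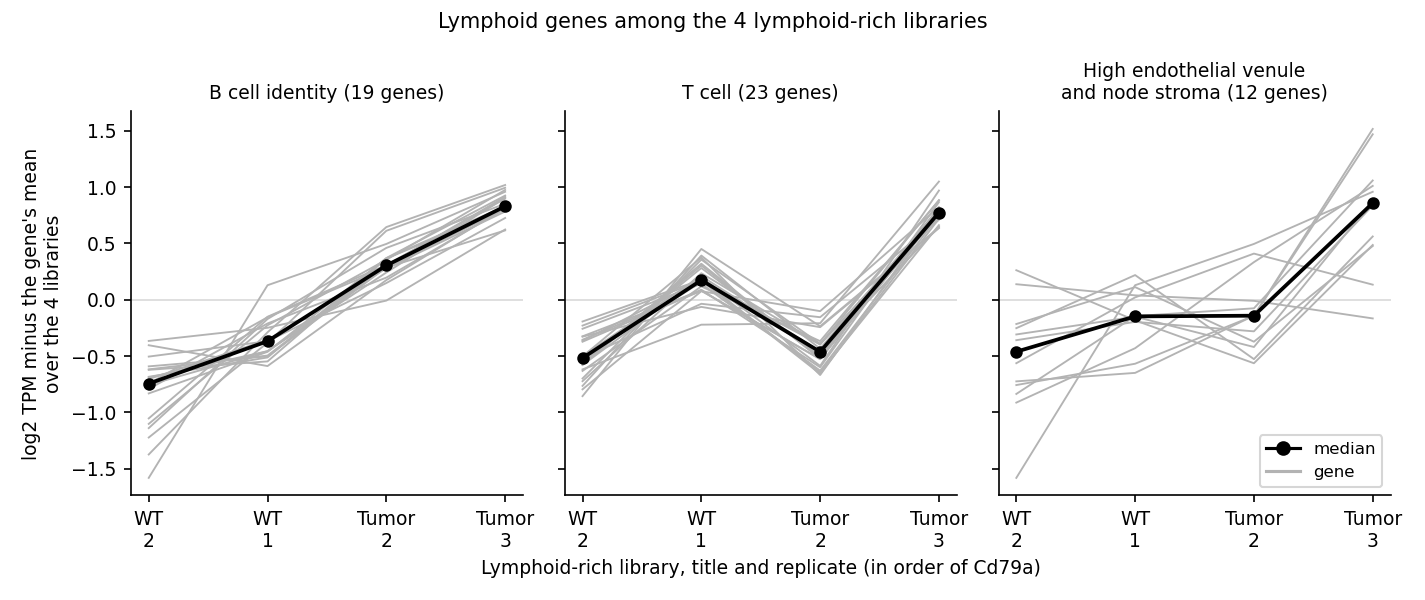
Level of each gene (grey) and the median (black) in the 4 lymphoid-rich libraries, in order of their Cd79a, as log2 TPM minus the gene's mean over these 4, for list members with a gap of at least 1. B cell genes climb with Cd79a to a median of 0.83 in Tumor replicate 3. T cell genes are lowest in WT replicate 2, at -0.52, and dip again to -0.46 in Tumor replicate 2.

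Fat progenitors and fibroblasts led the genes on the poor side. Of 20 listed, 17 were higher in both poor libraries than in every rich one, 6 with a gap of at least 1, and the median difference was -1.65. Pi16, which marks the interstitial progenitors of fat (chromosome 17), stood at 47, 35.5, 84.6 and 32 TPM on the rich side and 297 and 387 TPM on the poor side. Cd34, a surface protein of progenitors and endothelium, was at 75.2, 63.7, 84.8 and 48.1 TPM against 190.4 and 248 TPM. Fbn1, fibrillin, was at 13.3, 7.94, 25.5 and 8.71 TPM against 61.1 and 97.6 TPM. The poor libraries thus held several times the level of each of these. Mfap5, a partner of the fibrillin fibre, was at 37.1, 34.2, 58.5 and 23.6 TPM against 144 and 271 TPM, and Cd248, endosialin, at 28.9, 20.8, 34.3 and 12.6 TPM against 90.9 and 117 TPM. Col3a1, of fibrillar collagen, stood at 548, 326, 829 and 338 TPM against 1102 and 3869 TPM, with Tumor replicate 1 well above all other libraries. Icam1 and Cd55, which leukocytes express too, were the 2 members higher in every rich library, with Icam1 at 55.6, 54.3, 54.2 and 118 TPM against 16.7 and 23.5 TPM.

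The 20 genes with the widest gap on the poor side at 10 TPM or more were all protein coding. The widest was that of Fndc1, a fibronectin-domain protein of the matrix, at 20.8, 12, 24.8 and 7.71 TPM against 111 and 128 TPM. Pcolce2, an enhancer of procollagen processing, stood at 18.1, 13, 20.4 and 4.64 TPM against 75 and 77.7 TPM. Fn1, fibronectin, was at 90.03, 69.1, 108 and 90.4 TPM against 338 and 511 TPM. The genes Sfrp4, Thbs3 and the collagen receptor Itga11 were among the 20 too. Ccl9, a chemokine of myeloid cells, stood at 25.3, 34.1, 35.9 and 24.6 TPM against 132 and 251 TPM. Scara5, a ferritin receptor of fibroblasts, was at 25.3, 21.2, 26.1 and 13.5 TPM against 81.3 and 109 TPM. The rest were Tmem100, Bdh2, Pi16, Adgrd1, Lrrn4cl, Ackr3, Plat, Ang, Fez1, Sema3c, Shox2 and Smpd3.

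Adipocyte genes were higher on the poor side by less. Of 22 tested 15 were higher in both poor libraries than in every rich one, none with a gap of at least 1, and the median difference was -0.93. Adipoq, adiponectin, stood at 1413, 1711, 2023 and 721 TPM against 3403 and 3455 TPM. Cd36, the fatty acid transporter, was at 728, 613, 929 and 264 TPM against 1673 and 1579 TPM, and Lpl, lipoprotein lipase, at 1642, 1515, 1607 and 594 TPM against 2580.0 and 2654 TPM. Tumor replicate 3, which had the most lymphoid RNA, had the least of each. Lep, leptin, was at 80.6, 31.6, 146 and 18 TPM against 178 and 173 TPM. Genes of lipolysis behaved alike, with 11 of 15 higher in both poor libraries, against 22% of all genes. Lipe, the hormone-sensitive lipase, stood at 621, 767, 840.0 and 278 TPM against 1315 and 987 TPM. Adrb3, an adrenergic receptor of adipocytes, was at 271, 327, 406 and 156 TPM against 506 and 531 TPM.

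Levels were also set against adiponectin. Of the 20 progenitor and fibroblast genes 5 were higher in both poor libraries per TPM of Adipoq, 3 were higher in every rich library and 12 overlapped. Dcn, decorin, per 100 TPM of Adipoq was 37.9, 25.7, 32.7 and 46.6 on the rich side and 36.0 and 44.6 on the poor side, so that the sides overlapped. The endothelial cadherin Cdh5 overlapped too, at 2.85, 2.14, 3.03 and 3.78 against 2.63 and 2.05. Pi16, which together with Fndc1 had been picked for a wide gap, did not overlap per 100 TPM of Adipoq, at 3.33, 2.08, 4.18 and 4.44 against 8.72 and 11.2. For Fndc1 the values were 1.47, 0.703, 1.23 and 1.07 against 3.26 and 3.70.

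Other cells of fat differed in how far they followed the poor side. Of 14 genes of fat microvessels 12 were higher in both poor libraries, against 22% of all genes, with a median difference of -0.80. Tek, the angiopoietin receptor, stood at 11.3, 9.51, 15.8 and 4.92 TPM against 31.4 and 30.6 TPM. Pecam1, which endothelium of nodes and many leukocytes share, overlapped at 106, 105, 141 and 149.8 TPM against 103 and 107 TPM. Of 20 macrophage genes 10 were higher in both poor libraries, against the same 22%, with a median difference of -0.72. Among the 10 was Lpl, which is also on the adipocyte list. Cd163, a scavenger receptor of resident macrophages, stood at 11.1, 7.24, 15.8 and 3.77 TPM against 31.1 and 34.1 TPM. Folr2, of perivascular macrophages, was at 72.9, 56.6, 76.9 and 38 TPM against 114 and 219 TPM. Lyz2, lysozyme, overlapped. Nerve and Schwann cell genes had a median difference of -1.09, and 4 of 10 were higher in both poor libraries, against the same 22%. Among them Cadm3, an adhesion protein of axons, had a gap of at least 1, at 11.5, 11.2, 17.3 and 8.01 TPM against 41.2 and 43 TPM. Pericyte and smooth muscle genes were near the share of all genes, at 2 of 10 with a median difference of -0.14, and so were mast cell genes, at 2 of 9 and -0.46, with 1 higher in every rich library.

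In several programmes most genes overlapped between the sides. Of 30 interferon response genes, 1 was higher in every rich library and 1 in both poor ones (Ifi27l2a), and the median difference was 0.09. Isg15, the ubiquitin-like modifier, stood at 17.5, 47.7, 75.3 and 59.1 TPM on the rich side and 20.9 and 53.1 TPM on the poor side. Of 36 nuclear genes of oxidative phosphorylation none separated the sides, with a median difference of -0.11. Uqcrfs1, of complex III, stood at 234, 279, 165 and 120.1 TPM against 244 and 159.5 TPM. In the lipogenesis list 1 of 20 separated, Scd1, the stearoyl-CoA desaturase, at 4824, 3403, 3063 and 1165 TPM against 8061 and 5433 TPM. All 20 nevertheless had a lower mean on the rich side, with differences from -1.26 to -0.11 and a median of -0.47. Fasn, fatty acid synthase, was at 4238, 3091, 1092 and 736 TPM against 3764 and 1168 TPM. For both Isg15 and Fasn the sides overlapped.

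The titles cross the sides, which allows a test of the titles, Tumor minus WT with the side as a term. The rule did not use the titles, but the side term rests on its Cd79a split. With limma on log2(TPM + 1) 0 of 14740 genes passed an adjusted p of 0.05 in either direction. At an unadjusted p under 0.05 stood 1794 genes (12.2%) with a positive difference, higher under the title Tumor, and 403 (2.73%) with a negative one. The design is balanced, so that leaving the side out changes no difference but changes its error, and without it 537 (3.64%) and 245 (1.66%) had such a p. Within the 4 rich libraries alone the counts were 991 (6.72%) and 291 (1.97%), again with 0 past the adjusted threshold. The median of all genes was 0.23 on the log2 scale and 0.03 with median-ratio factors. With those factors 611 genes were higher and 937 lower at that p, against 731 and 835 under upper-quartile scaling, so that the balance of directions depends on the scaling. A term for the difference of the title contrast between the sides gave 0 genes at an adjusted p of 0.05, a smallest adjusted p of 0.297 by limma, and 263 genes at an unadjusted p under 0.05.

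The lymphoid markers are given between titles as values, with no test, since the sides were set by Cd79a. Over all 6 libraries the log2 difference, Tumor minus WT, was 0.97 for Cd79a, 0.62 for Glycam1 and 0.44 for Ccl21a, and the libraries of the titles overlapped for each.

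All 20 B cell genes had a positive difference between titles, with a median of 0.93 against 0.23 for all genes. With the side as a term 15, Cd79a among them, had an unadjusted limma p under 0.05, against 0 without it, and 0 passed the adjusted threshold. Of all genes 12.2% were higher at such a p with the term. The side was set by Cd79a, one of the list, so that its term takes up B cell spread by construction. The median SE of the list was 0.27 with the term and 2.18 without it, and the rise from 0 to 15 is no support. With log2(Cd79a TPM + 1) as a covariate in place of the side 4 had a positive difference at such a p, and the median was 0.28. Without WT replicate 2 the number was 9, and without Tumor replicate 3 it was 10. Cd79b had a difference of 1.13 (SE 0.18, limma adjusted p = 0.223), and its SE was 2.46 without the side term. Fcer2a had one of 1.20 (SE 0.33, limma adjusted p = 0.294). The 23 T cell genes were positive too, with a median of 0.31, near that of all genes, and 0 with such a p, and Trac had a difference of 0.19 (SE 0.37, limma adjusted p = 0.786). The T cell median was -0.25 with the Cd79a covariate, where 20 of the 23 were negative, and -0.039 without Tumor replicate 3, so that its sign depends on both. Within the 4 rich libraries the medians were 1.15 for B cell and 0.29 for T cell genes. With median-ratio factors they were 0.75 and 0.11. Of 10 class II genes 9 were higher at an unadjusted limma p under 0.05, against 12.2% of all genes, with a median of 0.79. The number was 0 without the side term, 5 with median-ratio factors and 5 without WT replicate 2. H2-Ob had a difference of 1.22 (SE 0.26, limma adjusted p = 0.232). Class II genes and B cell genes share Cd74. All 10 class II genes were higher in every rich library, so that the side term lowers their error by construction too.

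**Figure D4:**
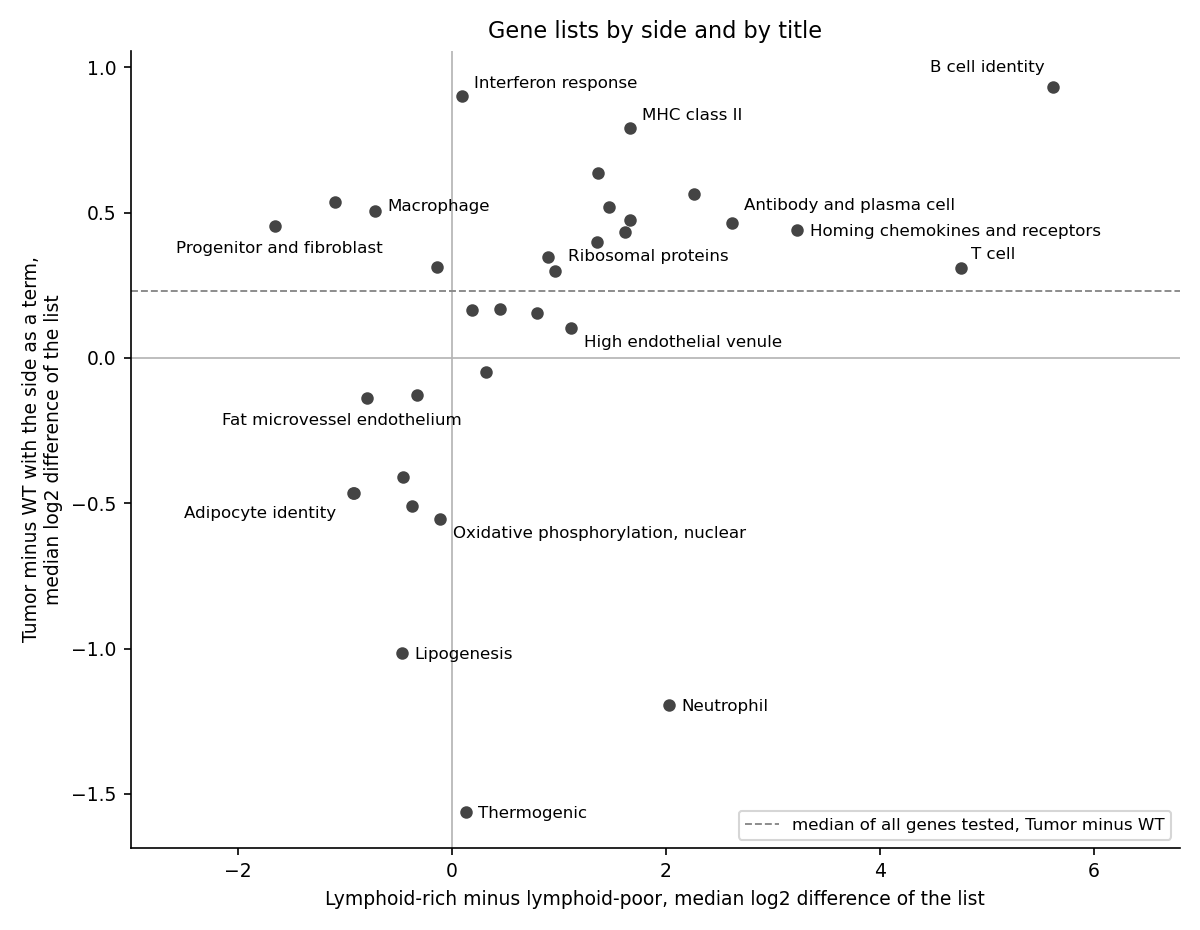
Median log2 difference of each gene list between the sides (horizontal) and between titles with the side as a term (vertical), for 33 lists. Skeletal muscle, at 3.31 between titles (median SE 2.03), is left out, as it varied between libraries of both sides. B cell genes lie high on both axes, and T cell genes lie far to the right near the median of all genes (dashed, 0.23). Interferon response and lipogenesis genes lie at 0.90 and -1.02 on the vertical axis. Thermogenic genes, at -1.56, and neutrophil genes, at -1.19, lie lower than lipogenesis genes.

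Interferon response and lipogenesis genes had differences of opposite sign between the titles. The lowest median of all lists was that of thermogenic genes, at -1.56. The highest was that of skeletal muscle genes, at 3.31 (median SE 2.03), with 0 of 16 at an unadjusted limma p under 0.05. Of 30 interferon genes 29 were positive with a median of 0.90. Higher at an unadjusted limma p under 0.05 were 26 of them, where the share of all genes was 12.2%. Without the side term the number was 20, where that share was 3.64%. Mx1, an antiviral GTPase, had a difference of 1.67 (SE 0.28, limma adjusted p = 0.223). Its level was 16.4, 12.5, 32.1 and 42.2 TPM on the rich side and 2.33 and 16.5 TPM on the poor side, so that the Tumor library was higher within the poor pair as well. All 20 lipogenesis genes were negative with a median of -1.02. Of them 14 had an unadjusted limma p under 0.05, where 2.73% of all genes were lower at that p. Without the side term the number was 9, where that share was 1.66%. Elovl6, which elongates palmitate, stood at 91.8, 54.7, 15.7 and 12.9 TPM on the rich side and 77 and 15.5 TPM on the poor side. Its difference was -2.24 (SE 0.22, limma adjusted p = 0.162), with the 3 Tumor libraries below the 3 WT libraries. Of 36 oxidative phosphorylation genes 28 had a negative difference at an unadjusted limma p under 0.05, against 2.73% of all genes, with a median of -0.55. But 17 had one in the 4 rich libraries alone, 15 without WT replicate 1, 4 without WT replicate 2 and 18 without Tumor replicate 3. For lipogenesis such genes numbered 9 when either poor library, WT replicate 3 or Tumor replicate 1, was left out. In each of these lists 0 genes passed the adjusted threshold.

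The genes with the smallest p are given as values. The smallest adjusted p belonged to Gm11594, a gene model, at 8.44, 7.32, 0 and 0 TPM on the rich side and 5.69 and 0 TPM on the poor side, with a difference of -3.01 (SE 0.23, limma adjusted p = 0.0575). It is listed at 0 in the 3 Tumor libraries. After it and Elovl6 came Slc2a5, the fructose transporter, at 13.2, 10.1, 2.24 and 1.32 TPM against 11.6 and 1.32 TPM. Chchd10, Gys2 and Aspg followed among lower genes. Among higher genes Siglec1 had a difference of 1.20 (SE 0.16, limma adjusted p = 0.223). Others were Gm49011, Pik3ap1, Ms4a4c and Phf11b. Without the side term the SE of Siglec1 was 0.33.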

How the data were processed

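Poly-A RNA from 6 mouse subcutaneous white fat samples, with an integrity number above 7 per the labels' protocols, was read from 1 deposited table of TPM. Its name speaks of raw counts, but per the file itself each column sums to 1000000 and holds fractions, so that the authors' values were treated as TPM with no count test and no known depth. Genome GRCm38.p6 and DESeq2 are listed in the submitters' processing notes with no role. The aligner, quantifier and annotation were not given in the sources used here. Of 36144 gene rows 26 names are spreadsheet dates and 2 names stand on more than 1 row, and 35859 matched GENCODE M21 singly for coordinates.

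Sides were split by Cd79a (50 TPM or more, below 5 TPM). Genes with 1 TPM or more in 2 libraries were described by non-overlap and by the gap between nearest libraries on log2(TPM + 1), with no test. Differences on that scale understate changes of low genes. Titles were compared with limma 3.58.1 in R 4.3.3 (pseudocount 1, trend and robust moderation, side as a term, Benjamini-Hochberg over all genes, threshold 0.05), checked on simulated data. An exact permutation test planned for 3 markers between titles is not reported, since the sides rest on Cd79a. Titles call the samples biological replicates, but no source says that each was a separate animal, and p-values measure the spread between these samples. Alternatives were scaling factors, filters, pseudocounts, covariates, the replicate block and leaving out each library.

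The members, the 34 lists (503 genes, 473 tested) and the rules were chosen with earlier results of these data known. Named were the 3 markers and Msra, the 20 genes with the widest gap per side at a mean of 10 TPM or more on the higher side, up to 5 members per list by gap and members near 0, the 8 genes most constant against Cd79a at a gap of at least 2, and the 6 genes per direction with the smallest p. Other list members, Ccl21b, Igkv12-44 and genes of the last section were named after their values were seen, and some genes are not reported here. Promoters matched 363 list genes by symbol, and the 6 motifs were kept after others had been looked at. Figures and tables used Python 3.11.15, pandas 2.3.3, numpy 2.4.6 and matplotlib 3.10.9.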

Additional observations from a re-analysis of the deposited data

How the results depend on the processing

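TPM carry no depth, the poor side has 2 libraries, and counts of non-overlap grow when a library is left out because fewer must be cleared. The count of genes higher in every rich library ranged from 3492 to 5390 with 1 library left out in turn, where 5390 came without Tumor replicate 1 and 5179 without WT replicate 2, and that of genes higher in both poor libraries from 3375 to 4806. With a gap of at least 1 they were 866 and 105. Scaling factors, filters and a rescaled TPM kept both counts within 1.5 times. Of 408 medians of lists between the sides, recomputed under the alternatives, 377 moved by less than the spread, 29 moved by more and 2 reversed, lymphatic endothelium to -0.42 and germinal centre to -0.28 when genes needed 5 TPM in 2 libraries, where fewer genes were tested.

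Between titles, where 0 genes passed, the number lower was 1 with log2(Cd79a TPM + 1) as a covariate, 1 with a pseudocount of 0.5 and 1 without the trend. With each library left out the number higher ranged from 0 to 5 and the number lower from 0 to 17, the top values without Tumor replicate 2, and it was 2 lower without Tumor replicate 3. At an unadjusted limma p under 0.05 the number higher ranged from 916 to 1964 and the number lower from 245 to 847, the low ends without WT replicate 2 and the high ends without Tumor replicate 2. The difference of Ccl21a ranged from -0.078 to 0.89 with each library left out, the low end without WT replicate 3 or Tumor replicate 1, and was -0.078 in the 4 rich libraries alone and -0.40 with the Cd79a covariate. That of Glycam1 was -0.42 with this covariate. The cause was not tested for the others.

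Same-numbered samples deviated from their group means with correlations of -0.74, 0.20 and -0.83, and not every sample correlated best with its own number, so that the numbers were not taken as a pairing. With the replicate block and the side term 26 genes were higher and 24 lower, on 1 residual degree of freedom. With the block and no side term the numbers were 0 and 0, with 84 higher and 108 lower at an unadjusted limma p under 0.05.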

Other observations

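The 2 lymphoid-poor libraries differed from each other in genes of lipid-associated macrophages, which clear lipid from dying adipocytes. Trem2, a lipid receptor of these cells, stood at 4.49 and 111 TPM in WT replicate 3 and Tumor replicate 1 and at 5.87, 2.58, 3.64 and 3.99 TPM in the rich libraries. Gpnmb, a glycoprotein of lysosome-rich macrophages, was at 20.7 and 209.9 TPM against 10.01, 6.47, 9.36 and 8.49 TPM, and Atp6v0d2, a proton pump subunit, at 0.699 and 46.1 TPM against 1.67, 0.683, 0.943 and 0.755 TPM. Lgals3, galectin-3, was at 132 and 843 TPM against 134, 106, 99.9 and 119 TPM. Tumor replicate 1 was the highest of all 6 libraries for each, and it was also the highest for Col1a1 at 891 TPM and Lum at 181 TPM. With 1 library of each title on the poor side, these are values of single libraries.

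Skeletal muscle genes varied within both sides and were uneven between the titles. With the side as a term the 16 tested had a median difference of 3.31, Tumor minus WT (median SE 2.03), and all 16 were positive. Acta1, skeletal actin, stood at 0.953, 612, 135 and 575 TPM in the rich libraries and 2.82 and 410.2 TPM in the poor ones, and Ckm, muscle creatine kinase, at 0.335, 538, 128 and 489.8 TPM and 0.209 and 396 TPM. WT replicates 1 and 3 were the 2 libraries with little of either.

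Of 10 neutrophil genes 8 were higher in every rich library, against 23.3% of all genes, and 4 had a gap of at least 1, against 5.88%. The median difference was 2.03, and 7 of the 10 were highest in WT replicate 2. Ngp, neutrophilic granule protein, stood at 3.90, 34.3, 1.58 and 4.32 TPM in the rich libraries and was listed at 0 in both poor ones. Camp, cathelicidin, was at 4.82, 29.4, 1.79 and 3.42 TPM against 0.195 and 0 TPM, and Mpo, myeloperoxidase, at 2.20, 11.9, 0.933 and 0.866 TPM and was listed at 0 in both poor libraries. WT replicate 2 also held the most Ucp1, the uncoupling protein of thermogenic fat, at 71.1, 507, 2.21 and 2.27 TPM on the rich side against 15.7 and 0.383 TPM on the poor side, and the most Ighg1.

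Blood transcripts differed among libraries of each side. Hbb-bs, adult beta globin, stood at 402, 913, 1371 and 272 TPM on the rich side and 521 and 457 TPM on the poor side, with WT replicate 2 and Tumor replicate 2 the highest. Keratinocyte and milk genes were low, with Krt14 at 0.473, 0.0457, 0.184 and 0.0306 TPM against 0 and 0.215 TPM and Csn2 listed at 0 in 4 libraries.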
